A study of Homo sapiens with 4 samples.

Results

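The genes described here are 10 nuclear genes whose products copy, transcribe or stabilise the mitochondrial genome, or switch on the genes that do so. They were chosen by known role, as factors that could change the level of mitochondrial RNA, with earlier results of these data known. All 10 were found by Ensembl identifier among the 63677 genes of each count file. RNA was sequenced from 2 libraries of FLO-1LM and 2 libraries of FLO-1 parental cells. FLO-1 is a human cell line of esophageal adenocarcinoma, and FLO-1LM is its subline, grown from a liver metastasis after the tumor had been passaged repeatedly through NSG mice, which are severely immunodeficient. Both lines were grown without drug or genetic change and were harvested before full confluency, after a change of medium. Whether FLO-1LM stems from a single clone, and whether replicate libraries were made from separate cultures, is not given in the sources used here, so the p-values measure only the spread between these libraries, which may be technical.

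Total counts per library ran from 19060310 to 25920336, and 17143 genes passed the filter on low counts. Epithelial keratin genes were present in both lines, with *KRT8* at 273 CPM in FLO-1LM and 443 in parental cells. *EPCAM*, another epithelial marker, had only 3 to 12 counts in a library. Of the 8 fibroblast, blood and liver markers found in the files, *DCN*, *PTPRC*, *HBB* and *ALB* had 0 counts in every library, *COL1A1* had 186 to 284, and the other 3 had at most 18. No sequencing batch is given, so a batch that follows the line and the line itself cannot be told apart. Levels are in CPM, counts brought to the same library size after TMM scaling in edgeR.

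Mitochondria carry a small circular genome of their own, present in many copies per cell, which encodes core subunits of the respiratory chain together with the ribosomal and transfer RNAs needed to make them. Every protein that transcribes or copies this genome is encoded in the nucleus and imported. TFAM packages the DNA and bends it at the promoters, TFB2M opens the promoter, and the RNA polymerase POLRMT, helped by the elongation factor TEFM, makes long transcripts of each strand, which are then cut into single RNAs. LRPPRC protects the messenger RNAs, TFB1M methylates a ribosomal RNA, and the polymerase POLG and the helicase Twinkle, encoded by *C10orf2* (*TWNK* in later annotation), copy the DNA. Nuclear respiratory factor 1, the product of *NRF1*, binds promoters of many of these genes, and PGC-1beta, encoded by *PPARGC1B*, is a coactivator of nuclear genes for mitochondria.

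Several of these genes carry, in front of their start, letters that NRF1 or ETS factors such as GABP are known to bind, and the stretches of the 4 that hold NRF1 letters are shown, since NRF1 is itself one of the factors. RefSeq gave a promoter window, from 250 bases before to 50 after the start, for 8 of the 10 genes, all but *C10orf2* and *NRF1*. The coordinates of these windows are on build GRCh38.p14, not on the build of the counts. Shown are the last 140 bases before the start, 5′ to 3′ on the strand of the gene, at chr10:58385270-58385409 (+) for *TFAM*, chr19:633538-633677 (-) for *POLRMT*, chr1:246566262-246566401 (-) for *TFB2M* and chr6:155314485-155314624 (-) for *TFB1M*. Capitals mark matches to the NRF1 letters GCGCANGCGC or GCATGCGC and to the ETS letters CCGGAAGT or CGGAAG, on either strand.
TFAM: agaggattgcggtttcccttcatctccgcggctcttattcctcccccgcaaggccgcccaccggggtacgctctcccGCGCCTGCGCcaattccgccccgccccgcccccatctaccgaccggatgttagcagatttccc
POLRMT: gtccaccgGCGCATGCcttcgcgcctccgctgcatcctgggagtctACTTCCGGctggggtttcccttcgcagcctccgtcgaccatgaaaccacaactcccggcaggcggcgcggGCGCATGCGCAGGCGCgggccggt
TFB2M: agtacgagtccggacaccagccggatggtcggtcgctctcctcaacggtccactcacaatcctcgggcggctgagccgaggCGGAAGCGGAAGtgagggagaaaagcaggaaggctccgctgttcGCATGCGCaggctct
TFB1M: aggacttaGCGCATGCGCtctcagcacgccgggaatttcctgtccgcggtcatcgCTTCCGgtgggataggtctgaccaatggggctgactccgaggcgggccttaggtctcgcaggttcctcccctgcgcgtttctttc

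The longer NRF1 letters were found in 3 of the 8 windows, those of *TFAM*, *POLRMT* and *TFB1M*, against 5.78% of 35116 promoter windows of the same length. The shorter form was found in *POLRMT*, *TFB1M* and *TFB2M*, against 3.05% of all windows. In *TFB1M* it overlapped the longer one. In *POLRMT* it did so too, but a further match of the shorter form lay apart, 132 to 125 bases before the start. CCGGAAGT was present in *POLRMT* and *TEFM*, against 4.14% of all windows, and its core CGGAAG in 5 of the 8 windows, against 19.5%. In *TFAM* the longer NRF1 letters lay 63 to 54 bases before the start. In *POLRMT* they lay 24 to 15 bases before it, with a second, overlapping match at 18 to 9. *POLG* and *PPARGC1B* held none of these letters in their windows, and *LRPPRC* only CGGAAG. These letters are rich in G and C, and so are the windows of *TFAM*, *POLRMT* and *TFB1M*, at 68.0%, 66.3% and 66.7% against a median of 58.7% over all windows. Among the windows without NRF1 letters, *POLG* and *TEFM* were also rich in G and C, at 66.0% and 65.7%. *LRPPRC* and *PPARGC1B* were lower, at 55.3% and 46.0%. These are matches of letters, and binding was not measured.

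None of the 10 factors differed between FLO-1LM and FLO-1 parental cells after adjustment over all genes, with the threshold at 0.05, when 2 libraries were set against 2 with the quasi-likelihood test of edgeR. Of all 17143 genes tested, 2.23% passed this threshold. DESeq2 and limma voom also gave 0 of 10. All 10 factors passed the filter on low counts. At an unadjusted p below 0.05, 2 factors remained, *TFB2M* and *LRPPRC*, against 12.4% of all genes. Log2 fold changes, FLO-1LM against parental, ran from −0.23 for *PPARGC1B* to 0.32 for *TFB2M*, with a median of −0.020, beside a median of 0.0016 over all genes tested. Values were positive for 4 factors and negative for 6, where 50.4% of all genes tested had a positive value. As RNA was taken from whole cultures, a change in every cell and a change in the share of cells expressing a gene cannot be told apart.

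**Figure D1:**
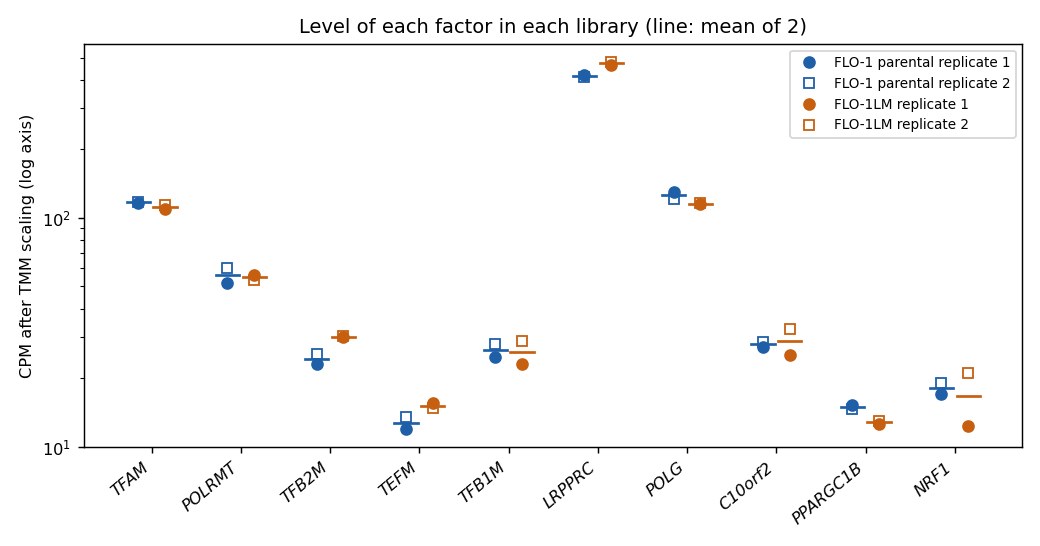
CPM of each factor (log axis) in the 2 FLO-1 parental libraries (blue) and the 2 FLO-1LM libraries (orange), with a line at the mean of each pair. *LRPPRC* lies far above the rest, *TFB2M*, *TEFM* and *LRPPRC* have both FLO-1LM libraries above both parental ones, and the 2 FLO-1LM libraries of *NRF1* lie on either side of the parental pair.

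The initiation and elongation factors of mitochondrial transcription had values on both sides of 0. *TFAM* (ENSG00000108064, chromosome 10 of GRCh37, 60145105 to 60158980, forward strand) had 109.0 and 113.8 CPM in FLO-1LM and 116.3 and 116.7 in parental cells. Both FLO-1LM libraries lay slightly below both parental libraries, at −0.064 on the log2 scale (SE, the standard error, 0.078, 95% interval −0.23 to 0.10, adjusted p = 0.829, edgeR). The interval corresponds to 0.853 to 1.07 times the parental level. Its processed pseudogenes *TFAMP1* and *TFAMP2* had at most 11 counts in a library, against 2238 to 2931 for *TFAM*.

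*POLRMT* (ENSG00000099821, chromosome 19, 617221 to 633537, reverse strand), the polymerase itself, had 56.3 and 53.6 CPM in FLO-1LM and 51.6 and 60.1 in parental cells. The parental libraries enclosed both FLO-1LM libraries, and the log2 fold change was −0.022 (SE 0.099, 95% interval −0.23 to 0.18). Its level is uncertain because of the pseudogene *POLRMTP1*, which had 516 and 651 counts in FLO-1LM and 444 and 443 in parental cells, against 1138 to 1380 for *POLRMT*. How the authors counted reads that match both is not stated. *POLRMTP1* did not pass the threshold either, with a log2 fold change of 0.17 (SE 0.13, adjusted p = 0.693, edgeR).

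*TFB2M* (ENSG00000162851, chromosome 1, 246703863 to 246729563, reverse strand) had the largest positive value of the 10 factors. Its levels were 29.9 and 30.3 CPM in FLO-1LM and 22.9 and 25.3 in parental cells, without overlap. The log2 fold change was 0.32 (SE 0.12, 95% interval 0.071 to 0.57), with an unadjusted p of 0.015 and an adjusted p of 0.235 in edgeR, and it therefore did not pass the threshold over all genes. *TEFM* (ENSG00000172171, chromosome 17, 29224354 to 29233256, reverse strand) was at 15.5 and 14.7 CPM in FLO-1LM and 11.9 and 13.5 in parental cells, again without overlap. Its log2 fold change of 0.25 (SE 0.16, 95% interval −0.088 to 0.58, adjusted p = 0.595, edgeR) included no change. Thus the promoter-opening and elongation factors had positive values and the DNA-packaging factor and the polymerase values near 0, with 95% intervals that overlapped. The differences among these 4 factors were not tested.

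*LRPPRC* (ENSG00000138095, chromosome 2, 44113363 to 44223365, reverse strand) forms a complex with SLIRP that shields mitochondrial messenger RNAs from decay and promotes their polyadenylation. It had 466 and 476 CPM in FLO-1LM and 421 and 409 in parental cells, so the lines did not overlap. The log2 fold change of 0.18 was small, but with 7849 to 12265 counts per library it was measured more closely than that of any other of the 10 factors (SE 0.069, 95% interval 0.037 to 0.33). The unadjusted p was 0.017 and the adjusted p 0.251 from edgeR. *SLIRP*, picked here for its role after its values were seen, had 23.2 and 25.1 CPM in FLO-1LM and 18.8 and 22.7 in parental cells, a log2 fold change of 0.22 (SE 0.14, adjusted p = 0.566, edgeR).

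*TFB1M* (ENSG00000029639, chromosome 6, 155577268 to 155635627, reverse strand), the paralog of *TFB2M* that modifies ribosomal RNA, had 23.0 and 28.8 CPM in FLO-1LM and 24.5 and 28.1 in parental cells. The FLO-1LM libraries enclosed the parental ones, and the log2 fold change was −0.018 (SE 0.13, 95% interval −0.30 to 0.26). Of its 4111 exon bases, 1264 lie opposite exons of *TIAM2*, which had 305 to 491 counts in a library against 512 to 741 for *TFB1M*. The strand setting of the counting is not stated, so reads of the pair may be mixed.

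For replication, *POLG* (ENSG00000140521, chromosome 15, 89848429 to 89878092, reverse strand), the catalytic subunit of the DNA polymerase, had 114.6 and 115.4 CPM in FLO-1LM and 129.3 and 121.0 in parental cells. Both FLO-1LM libraries were below both parental libraries, with a log2 fold change of −0.12 (SE 0.079, 95% interval −0.29 to 0.043, adjusted p = 0.595, edgeR). *POLG* shares 458 of 8280 exon bases with *FANCI* on the opposite strand, a more highly counted gene. *C10orf2* (ENSG00000107815, chromosome 10, 102747124 to 102754160, forward strand) had 25.1 and 32.7 CPM in FLO-1LM, on either side of 27.2 and 28.7 in parental cells. Its log2 fold change was 0.053 (SE 0.13, 95% interval −0.22 to 0.33). *C10orf2* shares 149 of 4135 exon bases with *MRPL43* on the opposite strand, which had 750 to 945 counts in a library against 551 to 843.

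Of the nuclear regulators, *PPARGC1B* (ENSG00000155846, chromosome 5, 149109861 to 149234585, forward strand) had the most negative value of the 10 factors. It had 12.52 and 12.97 CPM in FLO-1LM and 15.2 and 14.7 in parental cells, without overlap, and a log2 fold change of −0.23 (SE 0.16, 95% interval −0.56 to 0.10, adjusted p = 0.633, edgeR). *NRF1* (ENSG00000106459, chromosome 7, 129251561 to 129396922, forward strand; not *NFE2L1*, which has also been called NRF1) was the least even. It had 12.3 and 20.9 CPM in FLO-1LM, from 275 and 537 counts, and 16.9 and 19.0 in parental cells. Its 2 FLO-1LM libraries differed by 1.69 times, a gap reached by 12.3% of all genes tested, whereas its parental libraries differed by 1.12 times. That share is over genes of every level, those with few counts included. None was taken over genes with counts like those of *NRF1*. The log2 fold change was −0.10 (SE 0.19, 95% interval −0.51 to 0.30).

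**Figure D2:**
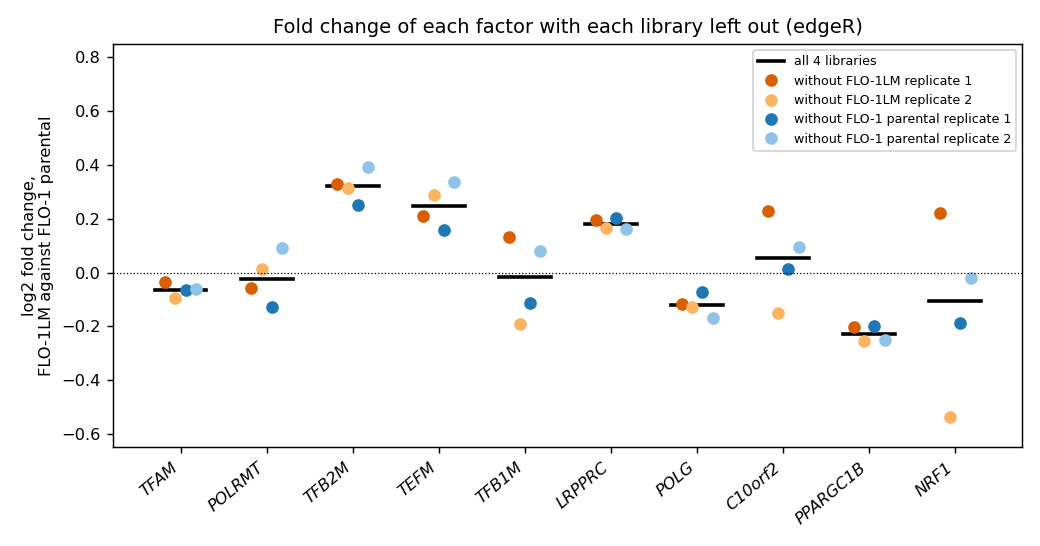
Log2 fold change of each factor, FLO-1LM against FLO-1 parental, from all 4 libraries (black line) and with each library left out in turn (points). *TFB2M*, *TEFM* and *LRPPRC* stay above 0 and *TFAM*, *POLG* and *PPARGC1B* below 0, while *NRF1* runs from −0.54 to 0.22 depending on which FLO-1LM library is left out.

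Which FLO-1LM library was used decided the value of *NRF1*. Without FLO-1LM replicate 1 its log2 fold change was 0.22, and without FLO-1LM replicate 2 it was −0.54. None of the 10 factors was called in any setting that kept all 4 libraries. The sign also turned with 1 library left out for *POLRMT*, *TFB1M* and *C10orf2*, whose values lay near 0. In each such fit the spread is estimated from the line that still has both libraries. The other 6 factors kept their sign in every setting, and across all of them *TFB2M* ran from 0.25 to 0.39, *TEFM* from 0.16 to 0.34, *LRPPRC* from 0.15 to 0.20 and *PPARGC1B* from −0.26 to −0.20. *TFAM* ran from −0.095 to −0.034, nearest to 0 without FLO-1LM replicate 1, and *POLG* from −0.17 to −0.073, nearest to 0 without parental replicate 1. *TEFM* was lowest without that same parental library.

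CPM of the 2 lines did not overlap for 6 of the 10 factors, with FLO-1LM above for *TFB2M*, *TEFM* and *LRPPRC* and below for *TFAM*, *POLG* and *PPARGC1B*. Over all genes tested, 20.9% had FLO-1LM above and 21.7% below, together 42.6%, so that separated pairs were common in these libraries. Summed over the 10 factors, the level was 864 and 900 CPM in FLO-1LM and 837 and 836 in parental cells. *LRPPRC* accounted for 409 to 476 CPM of it in a library.

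Levels were compared between genes per kilobase of exon. On the union of annotated exons *TFAM* was highest, at 20.6 to 22.1 CPM per kb over the 4 libraries. It was followed by *TFB2M* (12.84 to 16.96), *POLG* (13.8 to 15.6), *LRPPRC* (11.8 to 13.7) and *POLRMT* (10.2 to 11.9). The range of *POLG* lay within that of *TFB2M*, and that of *LRPPRC* met those of *TFB2M* and *POLRMT* but not that of *POLG*. *C10orf2* (6.08 to 7.92), *TFB1M* (5.590 to 7.001), *TEFM* (4.52 to 5.86) and *NRF1* (2.997 to 5.064) came next, each overlapping its neighbour. *PPARGC1B* was lowest, at 0.972 to 1.18, clear of all the others. The place of *LRPPRC* rested on the length used, because its annotated exons, with rare transcripts included, span 34689 bases and its longest transcript 10249. These lengths come from a later annotation than the reference the paper names, so the exons counted may differ. Per kb of the longest transcript it was highest, with a mean of 43.2 over the 4 libraries, ahead of 22.7 for *TFAM* and 22.6 for *POLG*, and *PPARGC1B* remained lowest at 1.31.

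**Figure D3:**
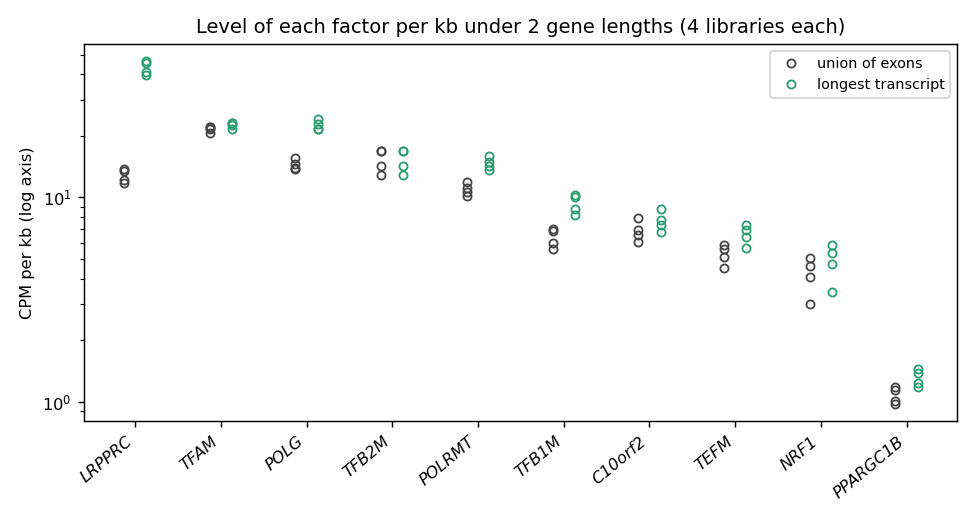
CPM per kb (log axis) of each factor in the 4 libraries, by the union of exons (grey) and by the longest transcript (green). *PPARGC1B* is lowest by either length, and *LRPPRC* moves from the middle of the factors, at 11.8 to 13.7, to the top.

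The RNA these factors act on was set beside them. The 15 mRNA and rRNA genes of the mitochondrial genome took 9.95% and 9.56% of counts in FLO-1LM and 7.92% and 8.30% in parental cells, a difference of 1.65 percentage points (exact two-sided permutation p = 0.333, the smallest that 2 against 2 libraries allow). Of the 15 genes, 10 rose and 1 fell past the threshold in edgeR, against 0.402% and 1.83% of all genes. Without FLO-1 parental replicate 1, 6 of the 15 passed. The study lists most of these genes as changed in the same libraries, so their direction is not independent evidence. The lines also stood apart in the number of genes with a count, 21152 and 21304 in the deeper FLO-1LM libraries and 23104 and 22908 in parental cells, and its part in these values was not tested. The 12 mRNAs read from the heavy strand had a median log2 fold change of 0.30, or 1.24 times the parental level, and *MT-ATP8* had the largest rise (0.93, SE 0.081, adjusted p = 1.49e-06, edgeR), on reads that it can share with the overlapping *MT-ATP6*. *MT-ND6*, the mRNA of the other strand, fell by 0.81 on the log2 scale (SE 0.099, adjusted p = 6.60e-05, edgeR). It lies opposite a transcript of the heavy strand, and the strand setting of the counting is not stated. Nor does the paper state whether RNA was selected by poly(A) tail or depleted of ribosomal RNA. How evenly the mitochondrial RNAs were captured is therefore not known.

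None of the factors thus passed the test where 11 of 15 mitochondrial RNAs did. The precision was not equal, however. *TFB2M*, at 0.32 (SE 0.12), did not pass, whereas *MT-CO1*, at 0.30 (SE 0.068), did. *TFB2M* had 485 to 779 counts in a library and *MT-CO1* 229084 to 344794. For 6 of the 10 factors, *TFAM*, *POLRMT*, *TFB1M*, *POLG*, *PPARGC1B* and *NRF1*, the upper bound of the 95% interval lay below the median of the heavy-strand mRNAs, 0.305, for *NRF1* narrowly, at 0.297. For *TFB2M*, *TEFM*, *LRPPRC* and *C10orf2* the interval reached beyond it. With each library left out in turn, a comparison added after the data were seen, this count ran from 3 factors, without parental replicate 2, to 8, without FLO-1LM replicate 2, and *TFAM* and *POLG* were among them each time. The median of the heavy-strand mRNAs is itself an estimate from these libraries, and it ran from 0.257 to 0.343 in the same fits. No interval on the difference was made. For each read of *TFAM* there were 629 and 558 reads of the 12 heavy-strand mRNAs in FLO-1LM and 456 and 479 in parental cells. Per read of *LRPPRC*, the values were 147 and 133 in FLO-1LM and 126 and 137 in parental cells, so that the lines overlapped on this ratio. No part of any of these factors in the level of mitochondrial RNA was tested.

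**Figure D4:**
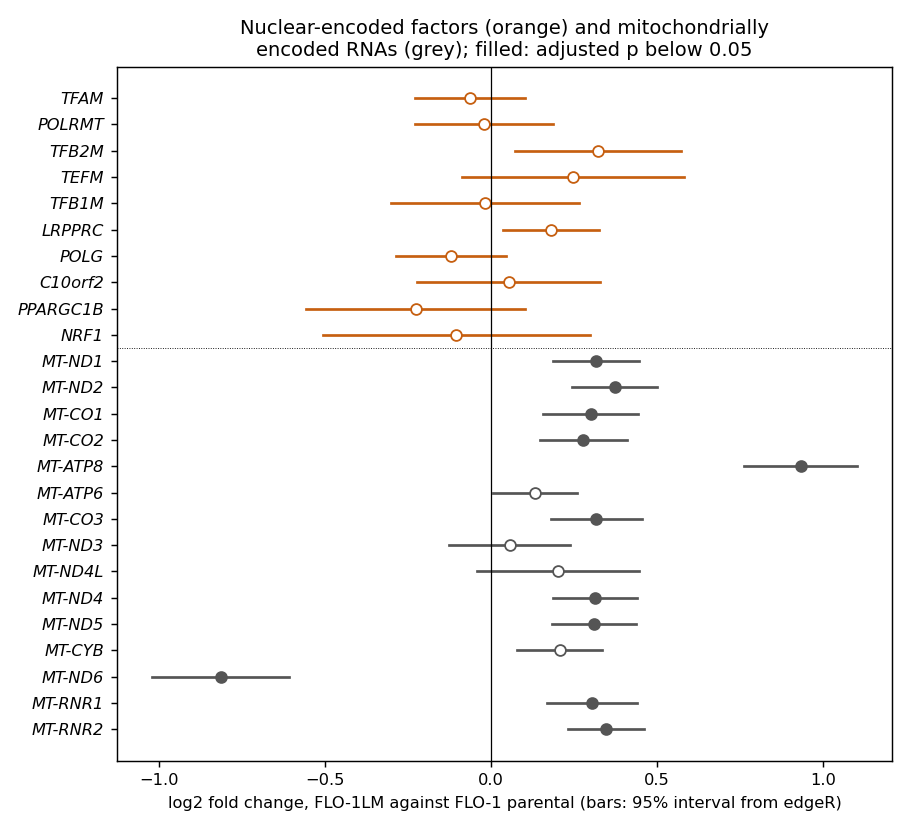
Log2 fold change, FLO-1LM against FLO-1 parental, with 95% intervals in edgeR, for the 10 nuclear-encoded factors (orange) and the 15 mitochondrially encoded mRNAs and rRNAs (grey). Filled points passed an adjusted p below 0.05. All 10 factors are open, and 10 of the mitochondrial RNAs lie filled to the right of 0, with *MT-ND6* filled at −0.81.

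The wider machinery was described through 70 further genes listed by role, of which 67 could be tested. *KIAA0391*, with 0 to 13 counts in a library, *PPARGC1A* and *ESRRG* did not pass the filter on low counts. A single gene passed the threshold, which is 1.49% of those tested, against 2.23% of all genes, and 5 had an unadjusted p below 0.05, where all genes tested gave 12.4%. The gene was *TYMP*, thymidine phosphorylase, which breaks down thymidine and whose loss in patients disturbs the mitochondrial DNA. It fell from 153.8 and 158.6 CPM in parental cells to 119.3 and 124.1 in FLO-1LM, a log2 fold change of −0.36 (SE 0.077, adjusted p = 0.015, edgeR). *TYMP* shares 323 exon bases with *ODF3B* on the same strand. *ODF3B* was also lower in FLO-1LM, with 911 and 992 counts in these deeper libraries and 1147 and 1067 in parental cells. The part of shared reads in the value of *TYMP* was not tested. Without FLO-1 parental replicate 1 or replicate 2 the adjusted p of *TYMP* rose to 0.162 and 0.270 in edgeR, with log2 fold changes of −0.38 and −0.34. The other 10 genes of nucleotide supply did not pass.

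Among 23 tested genes listed under RNA processing and decay, 17 had positive values, with a median of 0.042, where 50.4% of all genes were positive. The list also holds the mitochondrial translation initiation factors *MTIF2*, at −0.12, and *MTIF3*, at 0.31 (unadjusted p = 0.046, edgeR). The threshold was passed by 0 in edgeR, against 2.23% of all genes (2 at an unadjusted p below 0.05, against 12.4%, and 0 with DESeq2 or limma voom). *PNPT1*, the exonuclease of the mitochondrial RNA degradosome, was nearest to it. It had 62.2 and 61.8 CPM in FLO-1LM and 49.0 and 48.1 in parental cells, a log2 fold change of 0.35 (SE 0.091, adjusted p = 0.0502, edgeR). Its adjusted p was 0.029 from edgeR with no filter on low counts and 0.076 from DESeq2. With a library left out its log2 fold change ran from 0.34 to 0.37. *LACTB2*, a ribonuclease, was at 0.17 from all libraries and at 0.38 without FLO-1LM replicate 2. *PTCD3*, which has the highest CPM in this list when length is not considered, and serves mitochondrial translation, had a value of 0.060 (SE 0.082).

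Of 13 replication and nucleoid genes, 7 were positive and 6 negative. The threshold was passed by 0 in edgeR, against 2.23% of all genes tested, and by 0 with the other tools. At an unadjusted p below 0.05 there was 1, against 12.4% of all genes tested. That one was *ENDOG*, a mitochondrial nuclease, at −0.26 (SE 0.12, adjusted p = 0.368, edgeR), and *SSBP1*, the single-strand binding protein of the replication fork, was at 0.12 (SE 0.086). All 6 genes of termination and transcription partners missed the threshold, with *TOP1MT*, the mitochondrial topoisomerase, nearest to it at 0.18 (SE 0.092, adjusted p = 0.427, edgeR). Of the 3 genes of mitochondrial proteases, *LONP1*, whose product degrades TFAM, had 108.4 and 109.4 CPM in FLO-1LM and 89.5 and 103.1 in parental cells, a log2 fold change of 0.18 (SE 0.086, adjusted p = 0.412, edgeR).

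Of 11 tested nuclear regulators besides *NRF1* and *PPARGC1B*, 0 passed in edgeR, against 2.23% of all genes tested, and 0 with the other tools. At an unadjusted p below 0.05 there was 1, against 12.4% of all genes tested. *MYC*, a transcription factor with many mitochondrial targets, was at 91.2 and 95.7 CPM in FLO-1LM and 68.8 and 80.6 in parental cells, with a log2 fold change of 0.32 (SE 0.091, adjusted p = 0.079 in edgeR, and 0.022 with no filter on low counts). With a library left out the value of *MYC* ran from 0.21, without parental replicate 1, to 0.44, without parental replicate 2. It did not pass in DESeq2 (adjusted p = 0.115). *GABPA* was at 0.065 from all libraries and at 0.30 without FLO-1LM replicate 2. *SP1*, with the highest CPM among them when length is not considered, was at −0.051 (SE 0.078). *PPARGC1A*, which encodes PGC-1alpha and was singled out after its values were seen, had 0 counts in all 4 libraries, which allows up to 0.117 to 0.156 CPM by library at 3 counts. Its paralog *PPARGC1B* had 279 to 335 counts in a library.

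**Figure D5:**
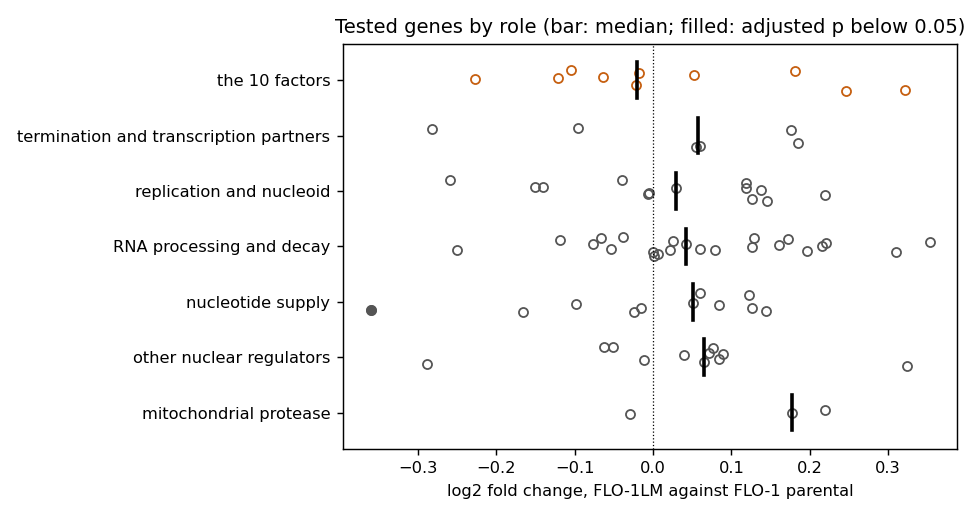
Log2 fold change, FLO-1LM against FLO-1 parental, of the 10 factors (orange) and 67 further tested genes by role (grey), with a bar at the median of each group. The sole filled point, past an adjusted p of 0.05, is *TYMP* in nucleotide supply at −0.36, and group medians run from −0.020 for the 10 factors to 0.18 for the proteases.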

How the data were processed

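The authors prepared directional libraries from total RNA, trimmed adapters with Trimmomatic 0.30, mapped the reads to GRCh37 and deposited raw counts of reads for each Ensembl gene in a file for each library. The aligner, the counting program and the strand used in counting are not given in the sources used here. The paper does not state whether RNA was selected by poly(A) tail or depleted of ribosomal RNA. From these counts, genes were filtered with edgeR's filterByExpr (at least 10 counts, scaled to depth, in 2 libraries, and a total of at least 15), and 17143 of 63677 passed. Lines were compared in R 4.3.3 with edgeR 4.0.16 (TMM, estimateDisp, glmQLFit, glmQLFTest), with Benjamini-Hochberg adjustment over all genes tested and a call below 0.05. The common biological coefficient of variation was 0.090. Standard errors were taken as |log2 fold change| over the root of the F statistic, and the 95% interval uses the t distribution of the test. Positions and lengths come from a later GENCODE annotation lifted to GRCh37, and promoters from RefSeq on GRCh38.p14. The paper names an earlier reference for its counts, so lengths and shared exon bases may not be those of the exons counted. Scripts were tested on simulated counts.

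The 10 factors and the other lists were chosen with earlier results of these data known. All 10 factors are described. Of the other lists, genes past the threshold were named, or else the gene with the smallest p and the gene with the highest level, and exceptions are stated. Alternatives were DESeq2 1.42.0, limma voom (limma 3.58.1) with and without TMM, RLE factors, library totals, other filters, the mitochondrial genome left out, the longest transcript as gene length, and each library left out. Intervals and the limit of 3 counts cover counting error only where no replicate spread is given.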

Additional observations from a re-analysis of the deposited data

How the results depend on the processing

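The number of genes called over the whole table was 382, 577 with no filter on low counts, and 116 to 1052 with a library left out, in fits that take their spread from the only pair left whole. The count among the 10 factors was 0 in all alternatives but leaving out a library, where it ran from 0 to 1, the call being *NRF1* without FLO-1LM replicate 2. Among the 67 further genes tested it was 1, 3 with no filter (*TYMP*, *PNPT1* and *MYC*), and 0 to 5 with a library left out. Among the 15 mitochondrial mRNA and rRNA genes it was 11, and 6 to 12 with a library left out, the lowest without FLO-1 parental replicate 1. Leaving out the mitochondrial genome gives no value for these. With a library left out, log2 fold changes crossed 0 for *POLRMT* (−0.13 to 0.091), *TFB1M* (−0.19 to 0.13), *C10orf2* (−0.15 to 0.23) and *NRF1* (−0.54 to 0.22). The median level of the 10 factors was 8.91 CPM per kb of exon and 11.7 per kb of the longest transcript. No paired analysis was possible because the labels number no replicates, and the numbers used here follow accession order and link no library of one line to one of the other. With 2 libraries per line, a single-gene permutation test cannot fall below 0.333.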

Other observations

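The 2 FLO-1LM libraries differed by at least 1.25 times in 10 of the 77 factors and further genes tested, compared with 30.4% of all genes tested. The ratio of 1.25 was chosen after the values were seen. The share over all genes includes genes with few counts, and none was taken over genes of like level. *NRF1*, *POLG2*, *MTERFD2*, *C10orf2*, *TFB1M* and *MTERFD1* were higher in replicate 2. *GABPA*, *LACTB2*, *PTCD1* and *MTERF* were higher in replicate 1. *GABPA*, which encodes the DNA-binding subunit of GABP, had 83.8 and 59.0 CPM in FLO-1LM, on either side of 69.0 and 67.2 in parental cells. *POLG2*, the accessory subunit of the mitochondrial DNA polymerase, had 20.02 and 27.62 CPM in FLO-1LM and 23.4 and 19.9 in parental cells. The cause was not tested.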
